A study of Homo sapiens with 14 samples.

Results

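The 56 genes described here encode the transfer RNAs (tRNAs) for the basic amino acids lysine, arginine and histidine. They were chosen by name from the RefSeq annotation of GRCh38, as nuclear tRNA genes on chromosomes 1 to 22 and X whose symbols begin with TRK-, TRR- or TRH-, and they are 56 of 429 such tRNA genes of all isotypes. The 6 TRR-TCT genes were left out by that rule. Of the 56 genes, 27 are lysine genes, with the anticodon CTT in 14 and TTT in 13. A further 20 are arginine genes, with the anticodon ACG in 7, TCG in 5, CCG in 4 and CCT in 4. The other 9 are histidine genes, all with the anticodon GTG.

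Binding had been mapped by chromatin immunoprecipitation and sequencing (ChIP-seq) in T47D, a single breast cancer line labelled positive for the oestrogen and progesterone receptors. All cells grew in medium with fetal bovine serum and insulin, and were then exposed for 1 h to ethanol (the vehicle) or to progesterone (P4), whose dose is not given in the sources used here. Each antibody, against the progesterone receptor (PR) or against the RNA polymerase III subunit POLR3A, was used on 3 replicate libraries per treatment, and each treatment had 1 pooled input library. The deposited data are 4 lists of bound regions, 1 per antibody and treatment, so a value here has no replicate and no difference could be tested against the spread between replicates. Read depth is unknown, the lists hold no expression values with which to check the cell line, and the PR list is longer under P4 than under vehicle (111515 against 38933 regions on these chromosomes). The POLR3A lists hold 47904 regions under P4 and 29161 under vehicle.

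RNA polymerase III transcribes tRNA genes from a promoter that lies inside the gene. Its A and B boxes are bound by the factor TFIIIC, which places TFIIIB upstream of the start, and TFIIIB recruits the polymerase, whose largest subunit is POLR3A. PR is a steroid hormone receptor that acts as a transcription factor when bound to progesterone. Most tRNA isotypes have several genes, and the symbols record this: genes that share the number after the anticodon, such as TRK-CTT2-1 and TRK-CTT2-3, encode the same mature tRNA sequence. By that naming the 56 genes fall into 32 families, 7 of them with 2 or more copies. The genes are 72 or 73 bp long, and the promoter table used here has no entry for them, so no tRNA sequence is printed.

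A gene was counted as bound when a region reached the gene body or the 100 bp on either side of it. POLR3A regions were at 48 of the 56 genes under vehicle (85.7%) and at 50 under P4 (89.3%), against 82.3% and 81.8% of all 429 tRNA genes. At 15 of the 48 and 14 of the 50, the region met several tRNA genes. With each region counted for the nearest tRNA gene alone, POLR3A was at 41 and 42 genes, against 68.8% of all tRNA genes in each list. PR regions were at 11 genes under vehicle (19.6%) and at 18 under P4 (32.1%), against 12.8% and 26.1% of all tRNA genes. The group thus had POLR3A and PR in shares a few percentage points above those of all tRNA genes in each of the 4 lists, a description with no test. The 68 tRNA genes for aspartate, glutamate, asparagine and glutamine had PR shares close to these (20.6% under vehicle and 36.8% under P4), and the 62 alanine and glycine genes had lower ones (8.06% and 17.7%).

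**Figure D1:**
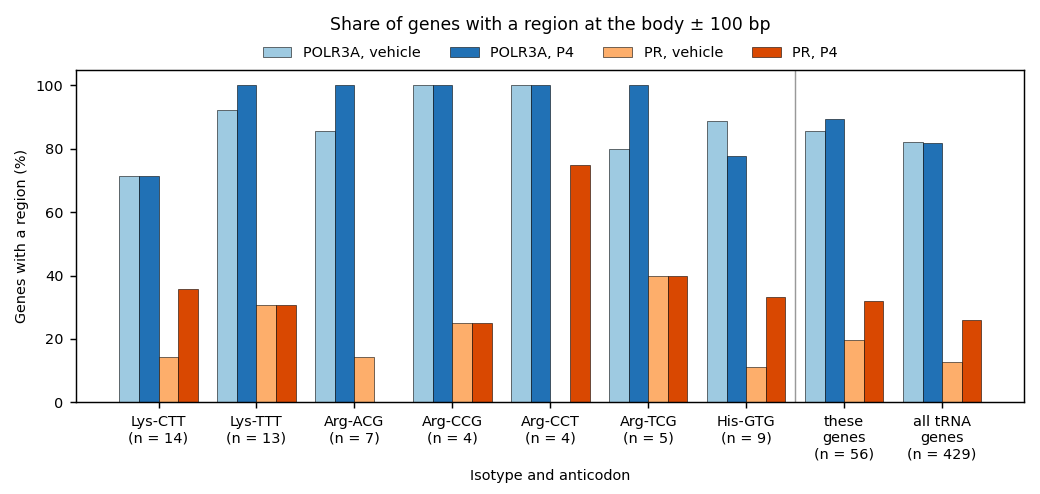
Share of genes (vertical axis, percent) with a region of each list at the gene body or the 100 bp on either side, by isotype and anticodon, for the 56 genes together and for all 429 tRNA genes. POLR3A is at 71.4% or more of the genes of every anticodon in both lists, while PR ranges from 0 of 7 ACG genes to 3 of 4 CCT genes, both under P4. Those 3 CCT calls come from 2 regions, whose summits lie outside the CCT genes and the 100 bp beside them.

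POLR3A was called under both treatments at 47 genes (83.9%, against 79.0% of all tRNA genes). PR was in neither list at 28 of these, which is 28 of the 56 genes against 51.3% of all tRNA genes, and 9 of them were in all 4 lists (16.1%, against 11.0% of all tRNA genes). The remaining 10 of them had PR in a single list, 8 under P4 (14.3%, against 14.9%) and 2 under vehicle (3.57%, against 1.86%). Another 4 genes had POLR3A under a single treatment and no PR. PR under P4 without POLR3A was at 1 gene (1.79%, against 0.233% of all tRNA genes), the only such tRNA gene of any isotype. The last 4 genes were in no list (7.14%, against 14.7% of all tRNA genes). These classes hold all 56 genes.

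The strength of a region is given as its −log10 q-value, the authors' own score, which ranks regions within a list and does not measure a change between lists. Among the genes that had POLR3A, the median was 435.8 under vehicle and 422.5 under P4, with 353.9 and 354.2 over all tRNA genes. The vehicle scores spread from 2.68 to 606.8, and those under P4 from 2.47 to 583.7. Of the genes bound, 35 under vehicle (72.9%) and 41 under P4 (82.0%) were in the top 1% of their POLR3A list, against 71.7% and 79.8% of all tRNA genes bound, so these shares were near those of tRNA genes in general. Over the 47 genes in both POLR3A lists, the scores had a Spearman rank correlation of 0.89. This is a description across genes that share the libraries of each list and, for some, a region whose score counts once per gene. Genes with strong POLR3A under vehicle were therefore mostly those with strong POLR3A under P4.

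**Figure D2:**
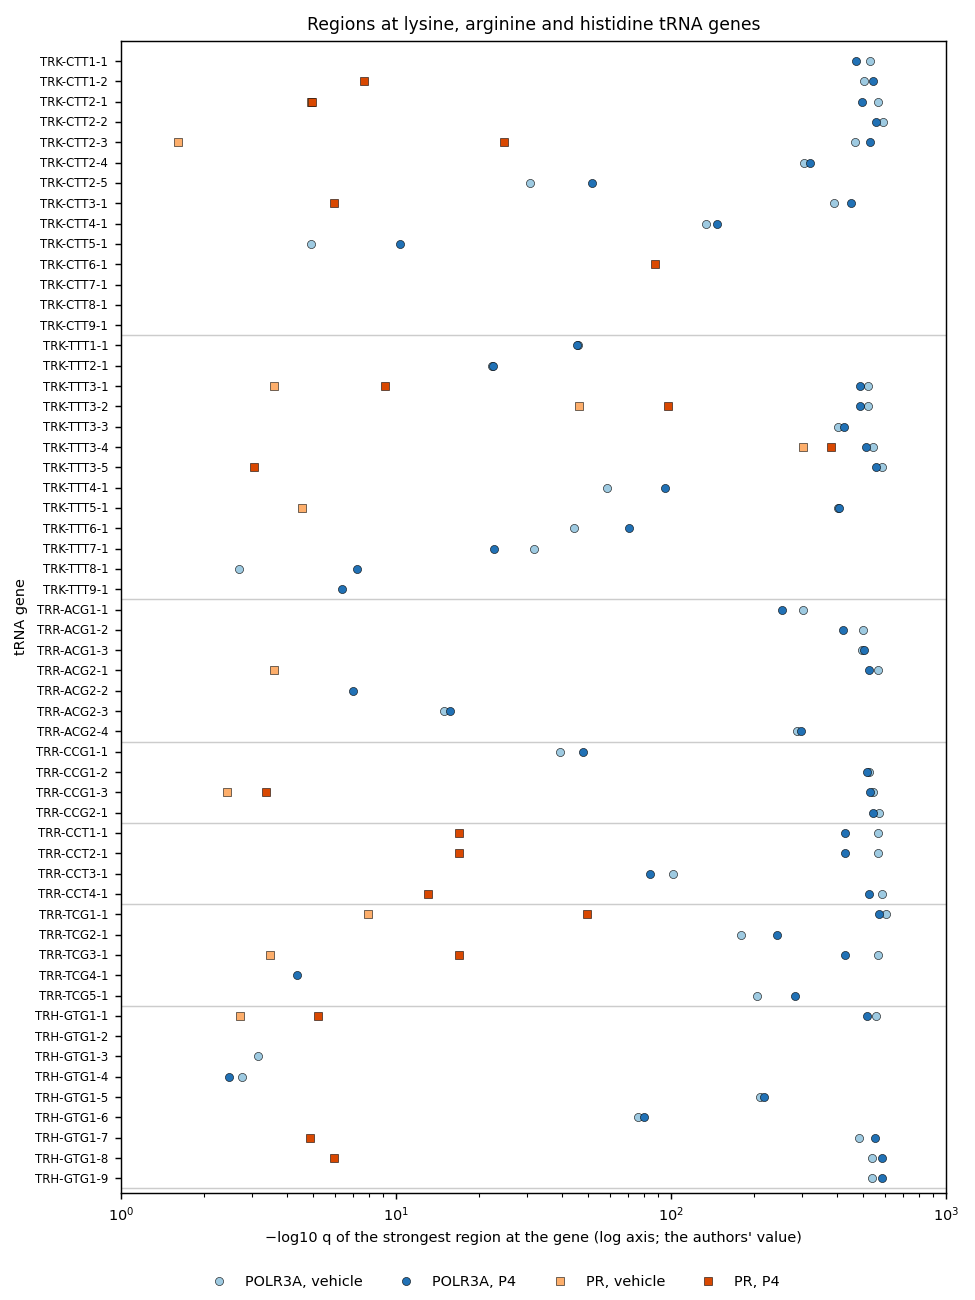
The −log10 q (horizontal log axis) of the strongest region of each list at each of the 56 genes, grouped by anticodon with lines between the groups. POLR3A circles lie between 2.47 and 606.8 and PR squares between 1.61 and 382.3, and the rows of 4 genes are empty.

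Lysine tRNA genes with the anticodon CTT, which read the codon AAG, had POLR3A at 10 of 14 genes in each list. The highest vehicle score was at TRK-CTT2-2 (chr5:181207755-181207827), with 588.6 under vehicle and 554.3 under P4, but the region's summit lay 897 and 883 bp from the gene's midpoint and the region met 2 tRNA genes. The lowest was at TRK-CTT5-1 (chr16:3180554-3180626), with 4.89 and 10.3. TRK-CTT7-1 (chr1:54957869-54957941), TRK-CTT8-1 (chr16:3164938-3165010) and TRK-CTT9-1 (chr5:26198430-26198502) had no region of any list. The anticodon thus held 3 of the 4 genes that were in no list. These are 3 of its 14 genes, against 63 of all 429 tRNA genes (14.7%), a comparison that was not tested.

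PR was at 2 CTT genes under vehicle and 5 under P4. TRK-CTT2-3 (chr5:181221979-181222051) had PR scores of 1.61 under vehicle, at percentile 1.8 of that list, and 24.6 under P4, at percentile 85.6. Its POLR3A scores were 466.8 and 527.6, with the summits 415 and 418 bp from the midpoint, in a region that also met another tRNA gene. TRK-CTT2-1 (chr1:146039401-146039473) had PR scores of 4.89 and 4.95, with the summits 133 and 539 bp from its midpoint, beside POLR3A scores of 567.5 and 494.9. Under P4 alone, PR was at TRK-CTT1-2 (chr15:78860562-78860634, score 7.65, summit 25 bp from the midpoint), at TRK-CTT3-1 (chr16:3157405-3157477, score 5.93, summit 164 bp away) and at TRK-CTT6-1. The last lies at chr18:46089305-46089377 within the span of ATP5F1A, a gene for a subunit of mitochondrial ATP synthase. It was the exception to joint occupancy, and the only tRNA gene of any isotype with PR and no POLR3A. Its PR region had a score of 87.2, and no POLR3A region was at the gene in either list. The summit of that PR region lay 852 bp from the gene's midpoint, and the region overlapped a vehicle PR region with a score of 30.4 that lay 275 bp from the gene.

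Lysine genes with the anticodon TTT, which read AAA, had POLR3A at 12 of 13 genes under vehicle and at all 13 under P4. The highest POLR3A score under vehicle was at TRK-TTT3-5 (chr17:8119155-8119227), 582.4 with 554.3 under P4, in a region of 2861 bp that met 4 tRNA genes. The lowest was at TRK-TTT8-1 (chr1:205474143-205474215), 2.68 with 7.19 under P4. TRK-TTT9-1 (chr6:27576067-27576139) had POLR3A under P4 alone, with a score of 6.34. Its nearest vehicle POLR3A region was 7084 bp away.

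The strongest PR regions of all 56 genes were in the TTT group, in the TRK-TTT3 family. All 5 copies of this family had POLR3A in both lists, with vehicle scores from 404.7 to 582.4, and PR was at 3 copies under vehicle and 4 under P4. TRK-TTT3-4 (chr11:59560335-59560407) had PR scores of 301.8 under vehicle and 382.3 under P4, at percentiles 99.6 and 99.8. Those summits lay 749 and 771 bp from its midpoint and outside its POLR3A regions, whose own summits were 22 and 26 bp from the midpoint. The strong PR site was thus beside the gene, and the edge of the wide PR region (1443 and 1345 bp) reached it.

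TRK-TTT3-2 (chr1:204507030-204507102) was different, with PR summits inside the gene. They lay 5 bp from the midpoint under vehicle and 14 bp under P4, in regions of 417 and 396 bp with scores of 46.2 and 97.9. Its neighbour TRK-TTT3-1 (chr1:204506527-204506599), 430 bp away, had PR scores of 3.59 and 9.11, and the same POLR3A region covered both genes (521.4 under vehicle and 487.8 under P4). Under P4 the PR summit at TRK-TTT3-1 lay 1 bp from the midpoint, while under vehicle it lay 272 bp away. TRK-TTT3-5 had PR under P4 alone, with a score of 3.04, and TRK-TTT3-3 (chr6:28951029-28951101) had none. A single-copy gene of this anticodon, TRK-TTT5-1 (chr11:59556429-59556501), had PR under vehicle alone, with a score of 4.54.

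Arginine genes with the anticodon ACG, whose first base is converted to inosine by the ADAT2 and ADAT3 enzyme, had POLR3A at 6 of 7 genes under vehicle and all 7 under P4. The highest score was 565.9 at TRR-ACG2-1 (chr3:45688999-45689071) and the lowest 14.9 at TRR-ACG2-3 (chr6:27215173-27215245), with 525.0 and 15.7 under P4, although both carry the name of the same family. Another copy of it, TRR-ACG2-2 (chr6:27213844-27213916), had POLR3A under P4 alone with a score of 6.96. PR was at TRR-ACG2-1 under vehicle (score 3.59, summit 238 bp from the midpoint) and at none of the 7 genes under P4.

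Arginine genes with the anticodon CCG, which read CGG, had POLR3A at all 4 genes in both lists. The vehicle scores ran from 39.4 at TRR-CCG1-1 (chr6:28742952-28743024) to 571.1 at TRR-CCG2-1 (chr17:68019897-68019969). PR was at TRR-CCG1-3 (chr16:3150674-3150746) in both lists, with low scores of 2.42 and 3.36 and summits 158 and 134 bp from the midpoint.

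Arginine genes with the anticodon CCT, which read AGG, also had POLR3A at all 4 genes in both lists. They had PR at none under vehicle and at 3 under P4. The vehicle POLR3A scores ran from 101.3 at TRR-CCT3-1 (chr16:3152900-3152972) to 584.5 at TRR-CCT4-1 (chr7:139340700-139340772). TRR-CCT4-1, within the span of LUC7L2, had a PR score of 13.1 under P4 with the summit 748 bp away, and the nearest vehicle PR region was 19747 bp from the gene.

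The other 2 CCT genes with PR share a single region with a TCG gene. TRR-CCT1-1 (chr17:75033906-75033978), TRR-CCT2-1 (chr17:75034431-75034503) and TRR-TCG3-1 (chr17:75035113-75035185) lie within the span of KCTD2, and 1 POLR3A region of 2290 bp under vehicle (563.3) and 1 of 2410 bp under P4 (429.4) covered all of them. Under vehicle, a PR region of 961 bp with a score of 3.48 peaked 7 bp from the middle of TRR-TCG3-1 and ended 388 bp from TRR-CCT2-1. Under P4, a PR region of 2090 bp with a score of 16.9 peaked 23 bp from the middle of TRR-TCG3-1 and reached the other genes. The PR calls at the 2 CCT genes thus came from the width of a region whose summit stayed at the TCG gene.

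Arginine genes with the anticodon TCG, which read CGA, had POLR3A at 4 of 5 genes under vehicle and all 5 under P4, and PR at 2 in each list. TRR-TCG1-1 (chr15:89335073-89335145), 249 bp from an end of POLG, the gene of the mitochondrial DNA polymerase, had the highest POLR3A score of the 56 genes under vehicle, 606.8, with 568.4 under P4. Its PR summits were 160 and 118 bp from the midpoint, at percentile 61.2 of the vehicle list (score 7.92) and percentile 91.9 of the P4 list (49.6). The lowest vehicle POLR3A score of this anticodon was 179.3 at TRR-TCG2-1 (chr6:26322818-26322890). TRR-TCG4-1 (chr6:26299677-26299749) had POLR3A under P4 alone, with a score of 4.37.

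The 9 histidine genes are named as copies of 1 family, TRH-GTG1, on 4 chromosomes, and the anticodon GTG reads both histidine codons. POLR3A was at 8 copies under vehicle and 7 under P4. The copies differed widely: vehicle scores ran from 2.76 at TRH-GTG1-4 (chr1:148302734-148302805) to 556.5 at TRH-GTG1-1 (chr1:146038044-146038115). TRH-GTG1-3 (chr1:148281365-148281436) had POLR3A under vehicle alone, with a score of 3.14, and TRH-GTG1-2 (chr1:147073225-147073296) was in no list. These 3 weak or empty copies lie on chromosome 1 between positions 147073225 and 148302805, where protein-coding NBPF genes are the nearest coding neighbours.

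PR was at TRH-GTG1-1 in both lists, with scores of 2.72 and 5.20 and summits 722 and 192 bp from the midpoint. Under P4 alone it was at TRH-GTG1-7 (chr15:45198606-45198677) with 4.86 and TRH-GTG1-8 (chr15:45200413-45200484) with 5.93, both within the span of SHF. The summit at TRH-GTG1-7 was 42 bp from the midpoint and 11 bp from the POLR3A summit. TRH-GTG1-9 (chr15:45201151-45201222) shared a POLR3A region with TRH-GTG1-8 (536.5 under vehicle and 583.7 under P4) and had no PR region within 100 bp, the nearest under P4 being 239 bp away.

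Copies named for the same mature sequence could differ widely in score, although neighbouring copies that shared a region had the same one. In the TRK-CTT2 family the vehicle POLR3A score ran from 30.6 at TRK-CTT2-5 to 588.6, in TRR-CCG1 from 39.4 to 541.2 and in TRR-ACG1 from 302.9 to 500.9, while the 2 TRK-CTT1 copies were close, with 502.4 and 527.1. Of the 31 genes in families with 2 or more copies, 29 had POLR3A in each list (93.5%, against 82.3% and 81.8% of all tRNA genes). Their median vehicle score was 500.9. Of the 25 genes that are the only copy of their family, 19 had POLR3A under vehicle (76.0%) and 21 under P4 (84.0%), with a vehicle median of 179.3. This split was not made for other isotypes. How reads that fit several copies were placed is not given in the sources used here, and its part in these differences was not tested.

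POLR3A summits lay on the genes and PR summits mostly beside them. For each gene the nearest summit up to 500 bp from its midpoint was taken. POLR3A had such a summit at 43 genes in each list, a median of 21.0 bp away under vehicle (quartiles 11.0 and 30.0) and 16.0 bp away under P4 (quartiles 6.0 and 30.2). PR had one at 11 genes under vehicle, with a median of 158.0 bp (quartiles 107.0 and 255.0), and at 16 genes under P4, with a median of 168.2 bp (quartiles 37.4 and 373.6). These are not the same genes as those counted with PR. They include TRH-GTG1-3 and TRR-CCG2-1 under vehicle and TRR-ACG1-2, TRH-GTG1-5 and TRR-CCG1-2 under P4, which had no PR call. They leave out genes with PR whose summits were farther away, such as TRK-TTT3-4 (749 and 771 bp) and TRK-CTT6-1 (852 bp under P4). Within 50 bp of the midpoint were 37 of 43 and 40 of 43 POLR3A summits, and 2 of 11 and 5 of 16 PR summits. As shares these were 86.0% and 93.0% for POLR3A, against 87.9% and 88.9% over all tRNA genes with a summit in reach, and 18.2% and 31.2% for PR, against 13.8% and 10.9%. Within 100 bp the PR shares were 27.3% and 31.2%, against 26.2% and 24.4%. At the 39 genes with a POLR3A summit in reach in both lists, it shifted between treatments by a median of 11.0 bp and at most 142 bp, which leaves out larger moves. In the wide region over TRR-CCT1-1, TRR-CCT2-1 and TRR-TCG3-1 the POLR3A summit lay 18 bp from the midpoint of TRR-TCG3-1 under vehicle and 1211 bp from it under P4, where it was 4 bp from that of TRR-CCT1-1. At TRH-GTG1-1 the summit of the POLR3A region lay 12 bp from the midpoint under vehicle and 948 bp under P4, in a region that met 2 tRNA genes.

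Counting a gene as bound when a summit, rather than any part of a region, lay in its body or the 100 bp beside it lowered the PR counts to 5 genes under vehicle (8.93%, against 4.66% of all tRNA genes) and 7 under P4 (12.5%, against 9.32%). POLR3A was at 40 genes under vehicle (71.4%) and 42 under P4 by this rule, against 68.3% of all tRNA genes in each list. In both lists the PR summit met this rule at TRK-TTT3-2 and TRR-TCG3-1. Under vehicle it did so at TRK-CTT2-1, TRK-CTT2-3 and TRK-TTT5-1 as well, and under P4 at TRK-TTT3-1, TRK-CTT1-2, TRR-CCG1-3, TRR-TCG1-1 and TRH-GTG1-7. The rule was added after the values were seen.

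**Figure D3:**
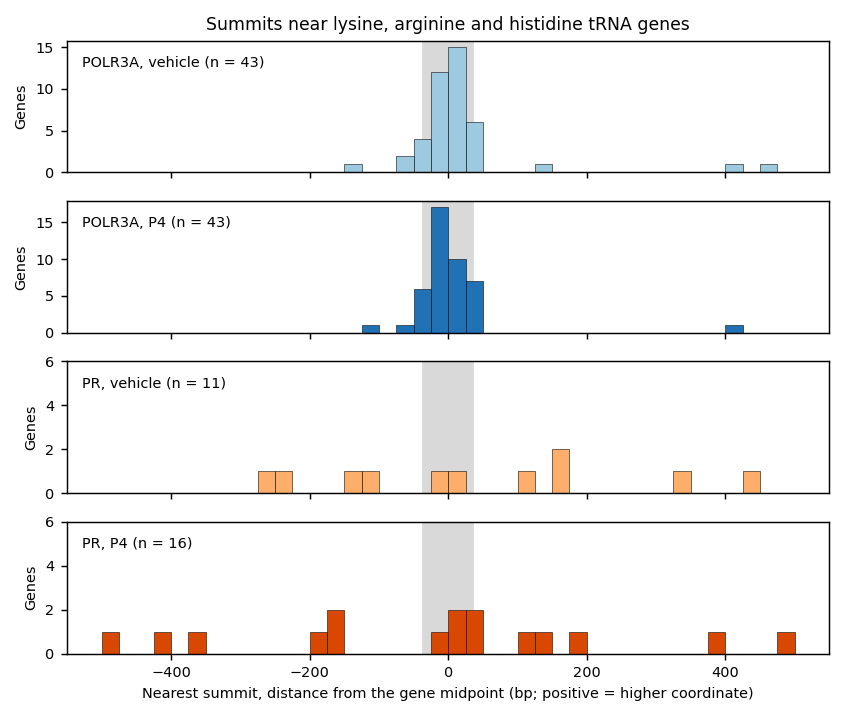
Distance in bp (horizontal axis) from the midpoint of each gene to the nearest summit of each list, up to 500 bp, with the number of genes on the vertical axis and the gene body shaded. POLR3A summits gather at the gene, with 37 of 43 and 40 of 43 within 50 bp, while those of PR spread over the window.

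Wherever both antibodies were called, the POLR3A region spanned the gene body and the 100 bp on either side. Any PR region counted there had to overlap it, so the overlap follows from the counting rule. Under vehicle all 11 genes with PR had POLR3A, and under P4 17 of 18 did, and in each of these the 2 regions overlapped by at least 1 bp. The PR summit lay inside the POLR3A region at 10 of the 11 genes and at 15 of the 17. The distance between the summits had a median of 163 bp under vehicle (25 to 804 bp) and 178 bp under P4 (5 to 1234 bp). The closest were at TRK-CTT1-2 (5 bp) and TRH-GTG1-7 (11 bp), both under P4. Genes with both antibodies were 19.6% and 30.4% of the 56, against 12.8% and 25.9% of all tRNA genes.

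Genes with PR had high POLR3A scores. The 19 genes with PR in either list and POLR3A had vehicle POLR3A scores from 390.1 to 606.8 with a median of 541.2, and the 29 genes with POLR3A and no PR ran from 2.68 to 588.6 with a median of 133.7. Over all tRNA genes the medians were 536.5 and 128.7. Of the 27 genes scoring at least 390.1, the lowest value of a gene with PR, 8 had no PR. The share with PR was 70.4%, against 62.5% of the 168 tRNA genes of all isotypes with that score or more. Over all tRNA genes, PR was also found below that score, at 14 of 185 genes with POLR3A. The 8 were TRK-CTT1-1, TRK-CTT2-2, TRK-TTT3-3, TRR-ACG1-2, TRR-ACG1-3, TRR-CCG1-2, TRR-CCG2-1 and TRH-GTG1-9, so a high POLR3A score also occurred without PR within 100 bp. The split depends on that window. With 500 bp on either side, TRK-CTT2-2, TRR-ACG1-2, TRR-CCG1-2, TRR-CCG2-1 and TRH-GTG1-9 had PR under P4. Below 390.1, TRH-GTG1-5 (210.6) then had PR under P4 and TRH-GTG1-3 (3.14) under vehicle. The genes with PR also lay nearer to the ends of protein-coding genes, with a median distance of 5206 bp against 22410 bp, and over all tRNA genes these medians were 5572 and 27044 bp.

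Position differed as well. Of the 56 genes, 17 lie on chromosome 6 between 26299677 and 28951101, a stretch that holds 139 tRNA genes. POLR3A was at 14 of these 17 under vehicle (82.4%) and all 17 under P4, against 82.5% and 80.3% of the other 137 tRNA genes of chromosome 6. The 3 with POLR3A under P4 alone had scores of 6.96 at the most. None of the 17 had PR within 100 bp in either list. The zero depends on that window. Under P4 a PR region lay 194 bp from TRR-ACG1-2, 256 bp from TRR-CCG1-2 and 290 bp from TRH-GTG1-5. These 3 genes had PR under P4 when 500 bp on either side were counted. Among the other 137 tRNA genes of chromosome 6, PR was at 7 under vehicle (5.11%) and 17 under P4 (12.4%), so a low PR share was found for other isotypes there too. Of the 39 genes elsewhere, 11 had PR under vehicle (28.2%) and 18 under P4 (46.2%), against 15.7% and 32.6% of the 236 tRNA genes of other isotypes elsewhere. The stretch held 42 PR regions under vehicle and 126 under P4, or 47.5 per Mb under P4 against 25.4 per Mb on the rest of the chromosome. Regions per Mb around the other 39 genes were not counted. Under P4 the nearest PR region lay a median of 7569 bp from the 17 genes and 371 bp from the other 39. The chromosome was singled out after the values were seen, and the POLR3A score differed with it, with vehicle medians of 208.1 on chromosome 6 and 521.4 elsewhere. Its part in the PR difference was not tested.

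**Figure D4:**
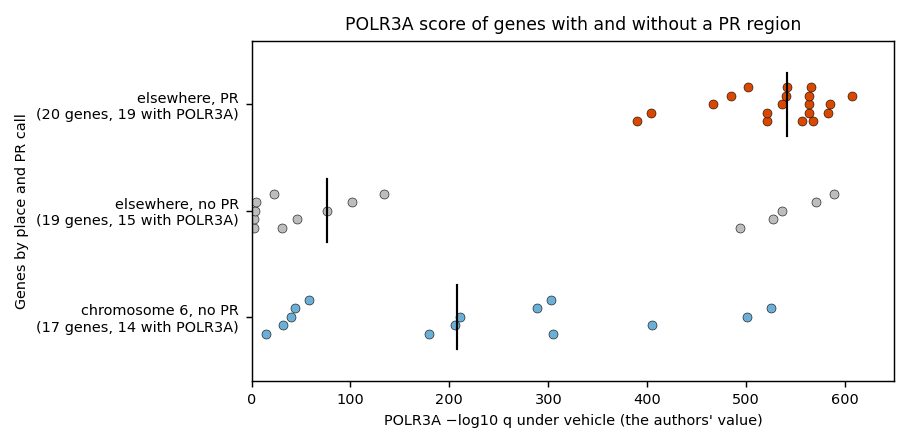
POLR3A −log10 q under vehicle (horizontal axis), with a vertical bar at each median and 1 point per gene with POLR3A. The groups are the genes on chromosome 6, which have no PR within 100 bp, and those elsewhere without and with PR within 100 bp in either list. The lowest score of a gene with PR is 390.1, and genes without PR occur above it too.

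P4 and vehicle gave different PR calls at 11 genes. PR was at 9 genes under P4 alone (16.1%, against 15.2% of all tRNA genes) and at 2 under vehicle alone (3.57%, against 1.86%). For POLR3A, 3 genes were bound under P4 alone (5.36%, against 2.80%) and 1 under vehicle alone (1.79%, against 3.26%). The PR shares are close to those of all tRNA genes. With both PR lists reduced to the same length by score, 11 genes had PR under each treatment, 5 gained and 5 lost, so the higher count under P4 was not found at equal length. Over all tRNA genes the counts were then 55 under vehicle (12.8%) and 44 under P4 (10.3%). With a −log10 q of at least 5 in both lists, PR was at 3 genes under vehicle (5.36%, against 4.20% of all tRNA genes) and at 14 of 56 under P4, against 16.6% of all tRNA genes. POLR3A at that score was at 44 genes under vehicle (78.6%, against 79.3%) and 48 under P4 (85.7%, against 79.0%).

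The PR regions at the genes called under P4 alone were of several strengths. TRK-CTT6-1 had the highest score, 87.2, followed by the shared region of TRR-CCT1-1 and TRR-CCT2-1 with 16.9, and the lowest was 3.04 at TRK-TTT3-5. At 3 of these 9 genes the P4 region overlapped a vehicle PR region that did not reach the gene. At TRH-GTG1-7, TRH-GTG1-8 and TRK-TTT3-5 the nearest vehicle PR region was 779, 738 and 401 bp from the gene. At TRK-CTT1-2 it was 50587 bp away. Regions called under a single treatment for POLR3A had scores of 6.96 at the most, against a median of 435.8 for all of these genes with POLR3A under vehicle.

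Genes that act on these tRNAs were read from a fixed list, as regions within 1 kb of either end of the gene. Among the 5 aminoacyl-tRNA synthetase genes, whose enzymes charge these tRNAs, PR was at 4 under vehicle and 5 under P4, and POLR3A at 4 and 2. Over all 19821 protein-coding genes the shares were 23.9% and 50.2% for PR and 30.8% and 33.6% for POLR3A. The PR scores under P4 were 5.25 at KARS1, 7.69 at RARS1, 3.36 at RARS2 and 14.5 at HARS1 and HARS2. HARS1 and HARS2 lie head to head and share that PR region, as well as the vehicle POLR3A region with a score of 4.89. Each of these regions was counted for both genes. Of 11 genes for tRNA modification enzymes, PR was at 1 under vehicle (ADAT3, 2.49) and 9 under P4, and POLR3A at 9 and 7. TRMT6, whose protein works with TRMT61A in methylating tRNA, had the highest PR score under P4, 30.7, and TRMT61A had 15.3. TRMT1, another tRNA methyltransferase, had 16.7. Synthetase regions had POLR3A scores of 4.89 at the most, far below the median at the tRNA genes.

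The HARS1 promoter is printed because HARS1 encodes the enzyme that charges histidine tRNA and because the strongest P4 PR region of the synthetase genes covers 288 of its 300 bases. It runs from chr5:140691321-140691620 on the minus strand of GRCh38.p14 (RefSeq), and capitals mark the 84 bases that lie in neither HARS1 nor HARS2.
HARS1: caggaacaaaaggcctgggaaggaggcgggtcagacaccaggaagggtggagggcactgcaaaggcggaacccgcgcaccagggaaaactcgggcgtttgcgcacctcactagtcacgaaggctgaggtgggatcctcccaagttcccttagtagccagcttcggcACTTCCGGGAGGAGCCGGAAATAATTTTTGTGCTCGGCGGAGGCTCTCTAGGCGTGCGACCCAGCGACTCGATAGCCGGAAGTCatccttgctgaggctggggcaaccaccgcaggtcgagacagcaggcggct
The summit of that PR region, at position 140691831, lies outside the printed window. The vehicle POLR3A region there (4.89) covers 16 of the bases. The letters AGAACA, the half-site of the progesterone response element, are in neither strand of the window, and 14.8% of the 35116 promoters in the table hold them.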

How the data were processed

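Chromatin immunoprecipitation sequencing of T47D cells was deposited as 4 peak lists. Per the submitters' processing notes, cutadapt, Bowtie2, MACS2 and the build hg38 were used, without versions or settings, and the control and the pooling of replicates are not given in the sources used here. Each row carries the authors' deposited region, summit offset, display score, fold enrichment (a ratio), −log10 p and −log10 q. Replicates share a list, so no test was run. The highest q-value in any list was 0.0497.

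Genes came from the RefSeq table of GRCh38.p14. Genes of alternate sequences, which follow the primary ones, were left out (679 of 59098). A region counted when it overlapped the gene body or the 100 bp on either side by at least 1 bp, and the region with the highest −log10 q gave a gene's value. Overlap counts equalled those of bedtools 2.31.1. Code used Python 3.11.15 and was tested on simulated data.

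The genes, lists and settings were chosen with earlier results of these data known. Named were genes with PR, with POLR3A under a single treatment or with no region, the highest and lowest POLR3A score of each anticodon, and a fixed list of synthetase and modification genes. Others were named after their values were seen.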

Additional observations from a re-analysis of the deposited data

How the results depend on the processing

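Of 88 values under alternative settings, 63 stayed within 1.5 times the reported one. The number of genes with POLR3A stayed within that range under every setting run, and the PR counts moved most. At a −log10 q of at least 5, PR was at 3 genes under vehicle, 3 genes had both antibodies under vehicle, and 0 genes lost PR or POLR3A under P4. At 10, PR was at 2 of 56 genes under vehicle and 9 of 56 under P4, against 2.10% and 7.69% of all tRNA genes. Both antibodies were then at 2 and 8 genes, 1 gene gained POLR3A and 0 lost it or PR. With lists of equal length, PR was at 11 genes under P4, both antibodies at 10, PR was gained at 5 and lost at 5, and POLR3A was lost at 2. With each region counted for the nearest tRNA gene alone, both antibodies were at 11 genes under P4 and POLR3A was lost at 3. Requiring a summit in the gene body or the 100 bp beside it, a setting chosen after the data were seen, gave PR at 5 genes under vehicle and 7 under P4, PR gained at 5, POLR3A gained at 5 and lost at 3, and both antibodies at 4 under vehicle and 5 under P4. The cause was not tested. Leaving out a replicate was not possible, because replicates share a list. No paired analysis was possible because the replicates of a group share 1 list and carry no values of their own. Depth is unknown, so a gene without a region is one without a call at this depth.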
